A study of Mus musculus with 7 samples.

Results

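The 8 interferon regulatory factor (IRF) genes Irf1, Irf2, Irf3, Irf4, Irf5, Irf7, Irf8 and Irf9 were examined together with Tmem173, which encodes STING, and Tbk1, in macrophages of the gut muscle layer after stroke surgery. The 10 genes were chosen by name, and each was among the 17209 genes of the deposited count table. There were 3 pMCAO libraries (pMCAO 1 to pMCAO 3) and 4 Sham libraries (Sham 1 to Sham 4), all made 24 h after surgery, and pMCAO is the stroke model of the series title. All samples were C57BL6/J by genotype. In both groups the cells were sorted as CX3CR1-GFP+, CX3CR1 being the fractalkine receptor, out of peeled small-intestinal muscle, and any other cell with this reporter would also be collected. The labels used here state no age and do not say whether a library held the cells of a single mouse, and a pool is named in the description of the pMCAO 3 library alone. The p-values therefore measure the spread between these libraries, which may be partly technical.

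STING sits on the endoplasmic reticulum and responds to a cyclic dinucleotide made when DNA is found in the cytosol, and it recruits the kinase TBK1. TBK1 phosphorylates IRF3 and IRF7, which then enter the nucleus and switch on type I interferon genes. Secreted interferon acts through its receptor, and IRF9 is the DNA-binding subunit of ISGF3, a complex that forms downstream of it. ISGF3 binds the interferon-stimulated response element of many genes, and Irf7 is itself among its targets, which amplifies the response. IRF1 activates and IRF2 antagonizes genes that hold this element. IRF5 drives inflammatory cytokine genes downstream of Toll-like receptors, and IRF4 and IRF8 pair with the ETS factor PU.1 in myeloid cells.

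Library totals were between 12685941 and 21680302 assigned reads after pMCAO and between 18873893 and 34432716 after sham surgery. Every member was well covered, with raw counts between 192 (Irf7 in pMCAO 3) and 6324 (Irf8 in Sham 4). All 20 general macrophage markers were listed, and their summed level was between 15249 and 22796 CPM in pMCAO libraries and between 22516 and 30860 CPM in sham libraries. The pMCAO 3 library had the lowest sum. Markers of blood endothelium summed to between 430 and 581 CPM in pMCAO libraries and between 158 and 378 CPM in sham libraries, with no overlap. Defining markers of enteric glia (Sox10) and neutrophils (Ly6g) had no row in the table. Fibroblast markers summed to between 109.6 and 545 CPM in pMCAO libraries and between 58.6 and 169 CPM in sham libraries. Mitochondrial ribosomal RNA took between 8.26% and 12.6% of pMCAO counts and between 2.42% and 5.82% of sham counts. CPM values, reads of a gene scaled to a common library size, are after TMM scaling here. In such bulk samples fewer macrophages and less RNA per macrophage cannot be told apart. The part of these differences in the results below was not tested, beyond the fits named there.

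Upstream sequence is shown for the members whose windows held an element read by IRF or STAT proteins, and for Irf7, the member with the largest change. The windows are the 250 bases before the transcription start (RefSeq, GRCm38.p6), and 9 of the 10 genes were searched, in 12 windows. No window of Tmem173 was searched, so whether it holds any of these elements was not tested. Both strands were searched for the interferon-stimulated response element (GAAA, any 2 bases, GAAA), the gamma-activated sequence (TTCNNNGAA) and an ETS-IRF composite element (GGAA, any 2 bases, GAAA). Capitals mark the matches, and the last base is the one before the start.

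Irf7, chr7:141266425-141266674, minus strand: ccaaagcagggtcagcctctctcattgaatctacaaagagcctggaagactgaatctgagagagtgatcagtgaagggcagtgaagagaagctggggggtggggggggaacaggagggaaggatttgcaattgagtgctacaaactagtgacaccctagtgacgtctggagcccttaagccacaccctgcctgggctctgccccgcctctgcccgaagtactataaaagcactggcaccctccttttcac
Irf1, chr11:53769764-53770013, plus strand: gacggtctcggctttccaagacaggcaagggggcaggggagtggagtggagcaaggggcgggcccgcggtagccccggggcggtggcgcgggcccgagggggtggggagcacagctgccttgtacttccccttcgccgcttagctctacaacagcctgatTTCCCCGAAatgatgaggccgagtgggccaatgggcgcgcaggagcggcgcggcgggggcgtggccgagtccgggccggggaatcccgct
Irf8, chr8:120736108-120736357, plus strand: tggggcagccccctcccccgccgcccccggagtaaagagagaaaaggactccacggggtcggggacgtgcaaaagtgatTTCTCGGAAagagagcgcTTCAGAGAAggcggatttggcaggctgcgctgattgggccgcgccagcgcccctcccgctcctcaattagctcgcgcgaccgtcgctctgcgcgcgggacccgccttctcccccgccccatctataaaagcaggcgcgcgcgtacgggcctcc
Irf2, chr8:46739495-46739744, plus strand: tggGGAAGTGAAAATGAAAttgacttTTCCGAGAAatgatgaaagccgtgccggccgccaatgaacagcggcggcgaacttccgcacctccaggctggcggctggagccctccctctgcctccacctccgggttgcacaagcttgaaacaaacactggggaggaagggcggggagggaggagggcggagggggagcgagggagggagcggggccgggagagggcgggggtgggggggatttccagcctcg

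The Irf1 window held a gamma-activated sequence, TTCCCCGAA, at -90 to -82 from the start. The Irf8 window held 2 of them, TTCTCGGAA at -171 to -163 and TTCAGAGAA at -153 to -145. The Irf2 window held all 3 elements within its first bases, where the composite GGAAGTGAAA at -247 to -238 overlapped the response element GAAAATGAAA at -241 to -232, and its gamma-activated sequence TTCCGAGAA lay at -224 to -216. The gamma-activated sequence occurred in 7.02% of all 32851 promoter windows of this length, the response element in 2.98% and the composite in 2.3%. The other windows, that of Irf7 included, held none of these strings. A match is a string of letters and not a shown binding site.

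None of the 10 members passed an adjusted p of 0.05 by the edgeR quasi-likelihood test over all genes, where 17 of 17209 genes (0.0988%) did. Irf7, the amplifier of the type I interferon response, came nearest, at 29.6% of its sham level. Of the 10 members, 8 had lower means after pMCAO and 2, Irf2 and Tbk1, had higher means. At an unadjusted p under 0.05 there were 5 lower members (Irf7, Tmem173, Irf5, Irf8 and Irf9) and 0 higher ones, beside 6.47% of all genes that were lower and 6.97% that were higher at that level. The median log2 change of the members was -0.45, beside -0.02 over all genes, of which 51.4% had a negative change. By other tools, DESeq2 called 2 members (Irf7 and Tmem173; 2.73% of all genes), limma-voom called 0 (0.203% of all genes) and limma-voom with sample quality weights called the same 2 (4.75% of all genes).

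**Figure D1:**
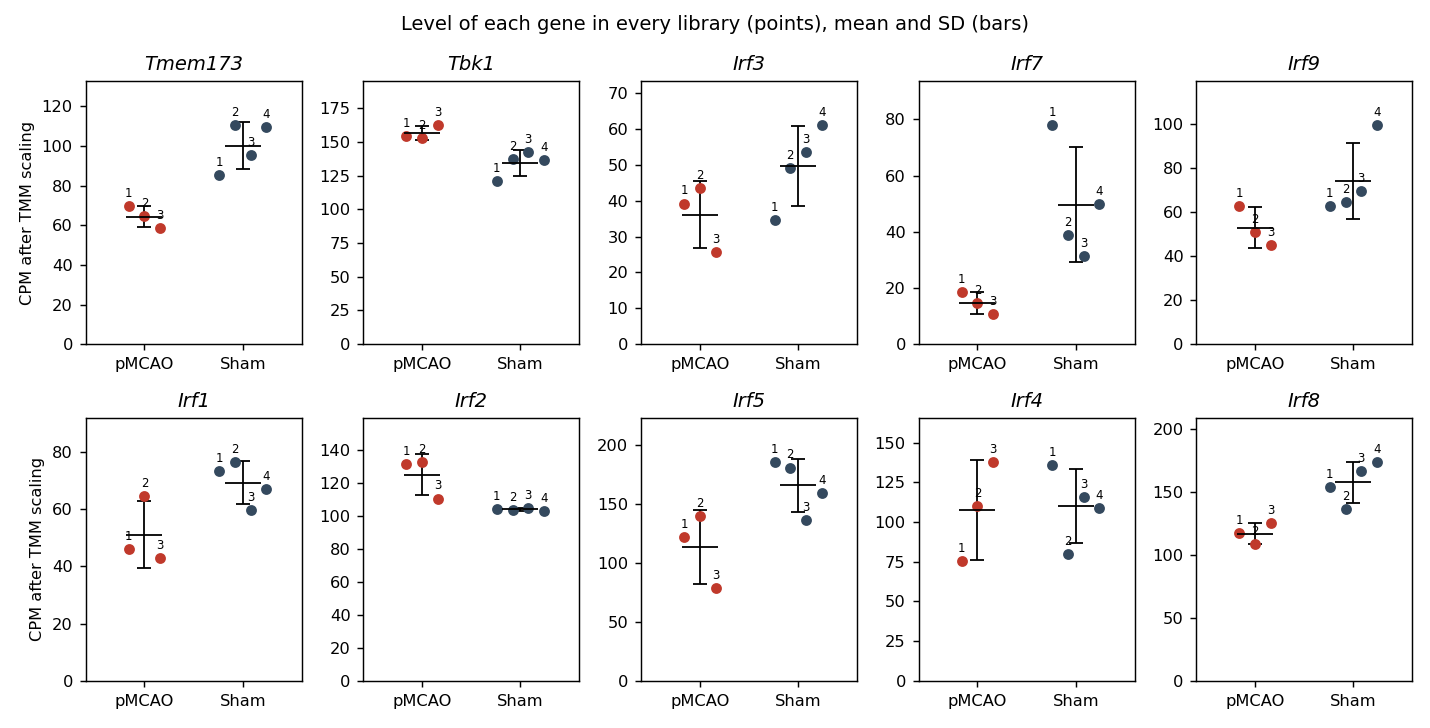
CPM after TMM scaling of each gene in the 3 pMCAO libraries (left, red) and the 4 Sham libraries (right, dark blue-grey), numbered by replicate, with the mean and SD as bars. Irf7, Tmem173 and Irf8 lie lower in every pMCAO library than in any Sham library, Irf2 and Tbk1 lie higher, and the groups of the other 5 genes overlap.

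In 3 members every pMCAO library lay below every sham library (Irf7, Tmem173 and Irf8), and in 2 every pMCAO library lay above (Irf2 and Tbk1). Over all genes such separation was seen in 6.58% toward lower and in 5.99% toward higher values. In the remaining 5 members the groups overlapped.

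STING and TBK1, at the head of the route, had changes of opposite sign, and neither passed the test. Tmem173 (ENSMUSG00000024349, chromosome 18, 35733679 to 35740554 of GRCm38, minus strand) was at 69.7, 64.7 and 58.8 CPM in the pMCAO libraries and at 85.5, 110.6, 95.3 and 109.4 CPM in the sham libraries. The 3 pMCAO values were close together and all below the lowest sham value, that of Sham 1. Its log2 change was -0.64 (SE 0.18, 95% interval -1.02 to -0.25, unadjusted p = 0.00303, adjusted p = 0.162). The negative direction held in each fit without a library, between -0.71 and -0.58. DESeq2 gave an adjusted p of 0.0488 and limma-voom with sample quality weights 0.0414. Tbk1 (ENSMUSG00000020115, chromosome 10, 121546455 to 121586787, minus strand) was at 154.5, 153.0 and 162.6 CPM in pMCAO libraries and at 121.0, 137.2, 142.8 and 136.6 CPM in sham libraries. The kinase gene was thus slightly higher in each pMCAO library, with a log2 change of 0.22 (SE 0.15, 95% interval -0.11 to 0.55, adjusted p = 0.556).

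The substrates of TBK1 differed in size of change. Irf7 (ENSMUSG00000025498, chromosome 7, 141262706 to 141266481, minus strand) was at 18.5, 14.8 and 10.8 CPM in pMCAO libraries and at 78.0, 38.9, 31.3 and 49.9 CPM in sham libraries. The groups did not overlap, and the sham libraries were spread, with Sham 1 well above the other sham values. The log2 change was -1.75 (SE 0.32, 95% interval -2.44 to -1.07, unadjusted p = 7.85e-05, adjusted p = 0.0527), rank 25 by p among all genes. It passed the threshold without Sham 2 (-1.85, adjusted p = 0.048) or without Sham 3 (-1.92, adjusted p = 0.0391), and the adjusted p was 0.0615 without Sham 1 (-1.45), 0.139 without Sham 4, 0.187 without pMCAO 1, 0.0621 without pMCAO 2 and 0.182 without pMCAO 3. Sham 1 also held the highest summed level of B and plasma cell markers, 1160 CPM, against at most 206 CPM in any other library. The part of B and plasma cell transcripts in the Irf7 level of that library was not tested.

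Irf3 (ENSMUSG00000003184, chromosome 7, 44997648 to 45002848, plus strand), the constitutively expressed substrate, was at 39.2, 43.5 and 25.7 CPM in pMCAO libraries and at 34.7, 49.1, 53.5 and 61.1 CPM in sham libraries. The groups overlapped because Sham 1 lay below both pMCAO 1 and pMCAO 2. Its log2 change was -0.46 (SE 0.25, 95% interval -0.99 to 0.08, adjusted p = 0.445), and it was -0.26 without pMCAO 3.

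Irf9 (ENSMUSG00000002325, chromosome 14, 55603571 to 55610030, plus strand), the DNA-binding subunit of ISGF3, was at 63.0, 50.9 and 44.9 CPM in pMCAO libraries and at 62.9, 64.6, 69.5 and 99.7 CPM in sham libraries. The highest pMCAO value, that of pMCAO 1, lay just above the lowest sham value, that of Sham 1, and Sham 4 lay above the rest. The log2 change was -0.49 (SE 0.22, 95% interval -0.95 to -0.02, adjusted p = 0.348), and it was -0.31 without Sham 4.

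**Figure D2:**
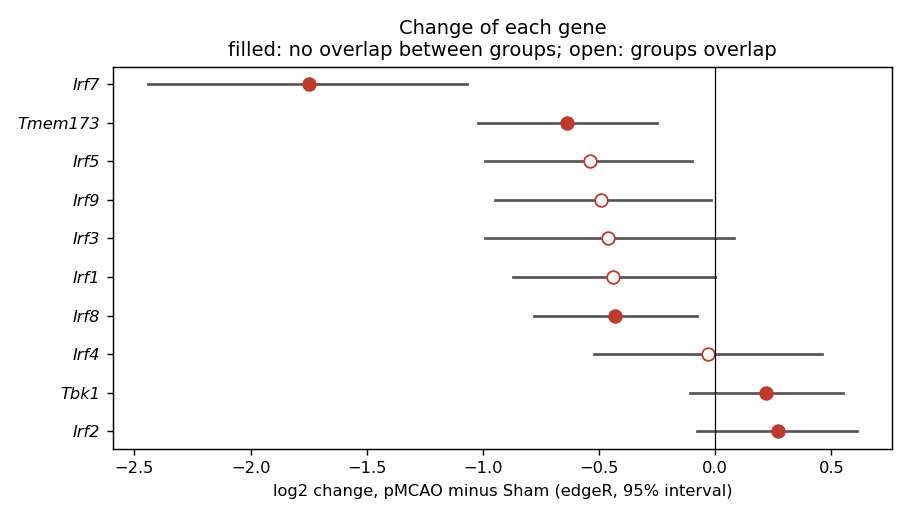
The log2 change of each gene (pMCAO minus Sham) from the edgeR fit over all genes, with its 95% interval as a line. Filled points mark genes whose groups do not overlap, and Irf7 at -1.75 stands apart from the other 9 genes, which lie between -0.64 and 0.27.

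The activator and the antagonist of the response element had changes of opposite sign, and neither passed. Irf1 (ENSMUSG00000018899, chromosome 11, 53770014 to 53778374, plus strand) was at 45.9, 64.5 and 42.7 CPM in pMCAO libraries and at 73.3, 76.5, 59.7 and 67.0 CPM in sham libraries. Only pMCAO 2 reached into the sham range. The log2 change was -0.44 (SE 0.20, unadjusted p = 0.0502, adjusted p = 0.372). Irf2 (ENSMUSG00000031627, chromosome 8, 46739732 to 46847458, plus strand) was at 131.6, 133.1 and 110.7 CPM in pMCAO libraries and at 104.6, 103.7, 105.2 and 102.9 CPM in sham libraries. The sham values were almost alike, with an SD of 0.998 CPM, and each pMCAO value lay above them. The log2 change was 0.27 (SE 0.16, 95% interval -0.08 to 0.61, adjusted p = 0.492).

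Irf5 (ENSMUSG00000029771, chromosome 6, 29526625 to 29541871, plus strand), a factor of inflammatory macrophages, was at 121.5, 139.8 and 78.8 CPM in pMCAO libraries and at 185.6, 180.6, 136.0 and 159.4 CPM in sham libraries. The value of pMCAO 2 exceeded that of Sham 3, and pMCAO 3 was the lowest. The log2 change was -0.54 (SE 0.21, 95% interval -0.99 to -0.10, unadjusted p = 0.0199, adjusted p = 0.277), and it was -0.34 without pMCAO 3. Its exons share 411 of 2905 bases (14.1%) with the opposite-strand gene Tnpo3, whose log2 change was 0.15 (SE 0.16), and the strand setting of the counting is not given in the sources used here. The overlaps of the other members with their neighbours covered at most 3.4% of their exons.

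Neither of the PU.1 partners passed, and the 95% intervals of their changes overlapped. Irf8 (ENSMUSG00000041515, chromosome 8, 120736358 to 120756694, plus strand), needed for monocyte and macrophage development, was at 117.2, 108.2 and 125.0 CPM in pMCAO libraries and at 153.5, 136.3, 166.0 and 173.8 CPM in sham libraries. All pMCAO values were below the lowest sham value. Its log2 change was -0.43 (SE 0.16, 95% interval -0.78 to -0.08, unadjusted p = 0.0200, adjusted p = 0.277). Irf4 (ENSMUSG00000021356, chromosome 13, 30749226 to 30766976, plus strand), which favours alternative activation in macrophages and is also expressed by plasma cells, was at 75.2, 110.3 and 138.0 CPM in pMCAO libraries and at 135.9, 79.9, 115.8 and 108.5 CPM in sham libraries. Both groups spanned nearly the same range, and the log2 change was -0.03 (SE 0.23, 95% interval -0.52 to 0.46, adjusted p = 0.974). The summed B and plasma cell markers were 115, 206 and 141 CPM in pMCAO libraries and 1160, 161, 128 and 49.6 CPM in sham libraries, led by Jchain in Sham 1, and without Sham 1 the Irf4 change was 0.09. Plasmacytoid dendritic cell markers, a cell type rich in Irf7 and Irf8, summed to between 110.4 and 175 CPM in pMCAO libraries and between 165 and 232 CPM in sham libraries. Of the 7 markers, 4 were listed, and Siglech made up most of the sum, at 147.0, 91.4 and 160.7 CPM in pMCAO libraries and 130.5, 148.0, 188.4 and 224.9 CPM in sham libraries. Classical monocyte markers summed to between 2352 and 3146 CPM in pMCAO libraries and between 1570 and 2425 CPM in sham libraries. F13a1 was the largest part of that sum in every library except Sham 1. It was at 1902.3, 1364.5 and 1738.1 CPM in pMCAO libraries and 977.8, 871.5, 1265.2 and 1044.3 CPM in sham libraries. Of these 7 monocyte markers, 5 had higher means after pMCAO and 2, Ly6c2 and Plac8, had lower means. Ly6c2 was between 1.57 and 25.3 CPM in pMCAO libraries and between 3.96 and 32.4 CPM in sham libraries. The Plac8 groups overlapped too. The part of these cell types in the changes of Irf4, Irf7 and Irf8 was not tested.

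Ratios between 2 members of the same library do not depend on scaling. The log2 ratio of Irf7 to Irf3 was -1.08, -1.56 and -1.26 in pMCAO libraries and 1.17, -0.34, -0.77 and -0.29 in sham libraries. Irf7 thus stood lower relative to Irf3 in every pMCAO library, with a difference of -1.24 between means (two-sided exact permutation test, p = 0.0571, adjusted p = 0.0857 over 3 ratios). The log2 ratio of Irf1 to Irf2 was -1.52, -1.04 and -1.38 in pMCAO libraries and -0.51, -0.44, -0.82 and -0.62 in sham libraries, a difference of -0.72 (exact permutation p = 0.0571, adjusted p = 0.0857). Here too the groups did not overlap. The log2 ratio of Irf4 to Irf8 was -0.64, 0.03 and 0.14 in pMCAO libraries and -0.18, -0.77, -0.52 and -0.68 in sham libraries, and the groups overlapped (difference 0.38, exact permutation p = 0.171, adjusted p = 0.171). With 3 against 4 libraries 0.0571 is the smallest p that this test can give, so no ratio could pass 0.05.

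**Figure D3:**
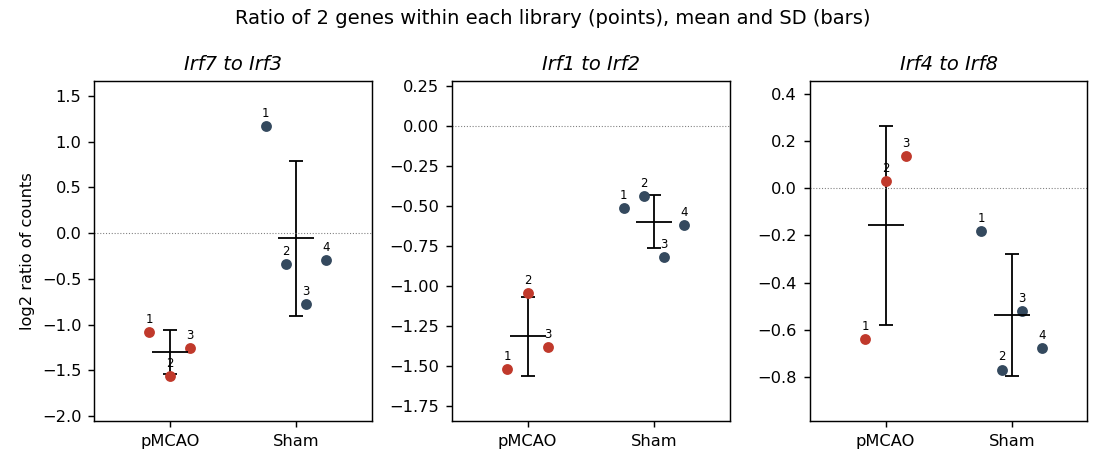
The log2 ratio of the counts of 2 genes within each library for 3 pairs, with the 3 pMCAO libraries left (red) and the 4 Sham libraries right (dark blue-grey), numbered by replicate, and the mean and SD as bars. The ratios of Irf7 to Irf3 and of Irf1 to Irf2 are lower in all pMCAO libraries than in any Sham library, and that of Irf4 to Irf8 overlaps.

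The median of the members, -0.45 with TMM factors, depended on the scaling and on the offsets of the fit. Scaled to the summed counts of the 20 general macrophage markers, the median log2 change of the members was -0.02, while that of all genes shifted to 0.44. On that scale Irf7 had a log2 change of -1.38 (SE 0.36, adjusted p = 0.069), Tmem173 -0.18, Irf5 -0.15, Irf9 -0.05, Irf3 -0.03, Irf1 -0.01 and Irf8 0.04. Tbk1 (0.69), Irf2 (0.70) and Irf4 (0.44) had positive values there. Of the 20 macrophage markers, 19 had lower means after pMCAO. With the mean log2 level of the fibroblast and endothelial markers as a covariate Irf7 was at -1.75 with a wider error (SE 0.63, adjusted p = 0.859), and Irf4 was at 0.62. When GC content and exon length were entered as offsets, the median of the members was -0.27 and Irf7 was at -1.53 (adjusted p = 0.12). In that fit Tmem173 was at -0.47, Irf9 at -0.44, Irf8 at -0.38, Irf1 at -0.27, Irf5 at -0.26, Irf3 at -0.13, Irf4 at -0.07, Irf2 at 0.13 and Tbk1 at 0.13.

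**Figure D4:**
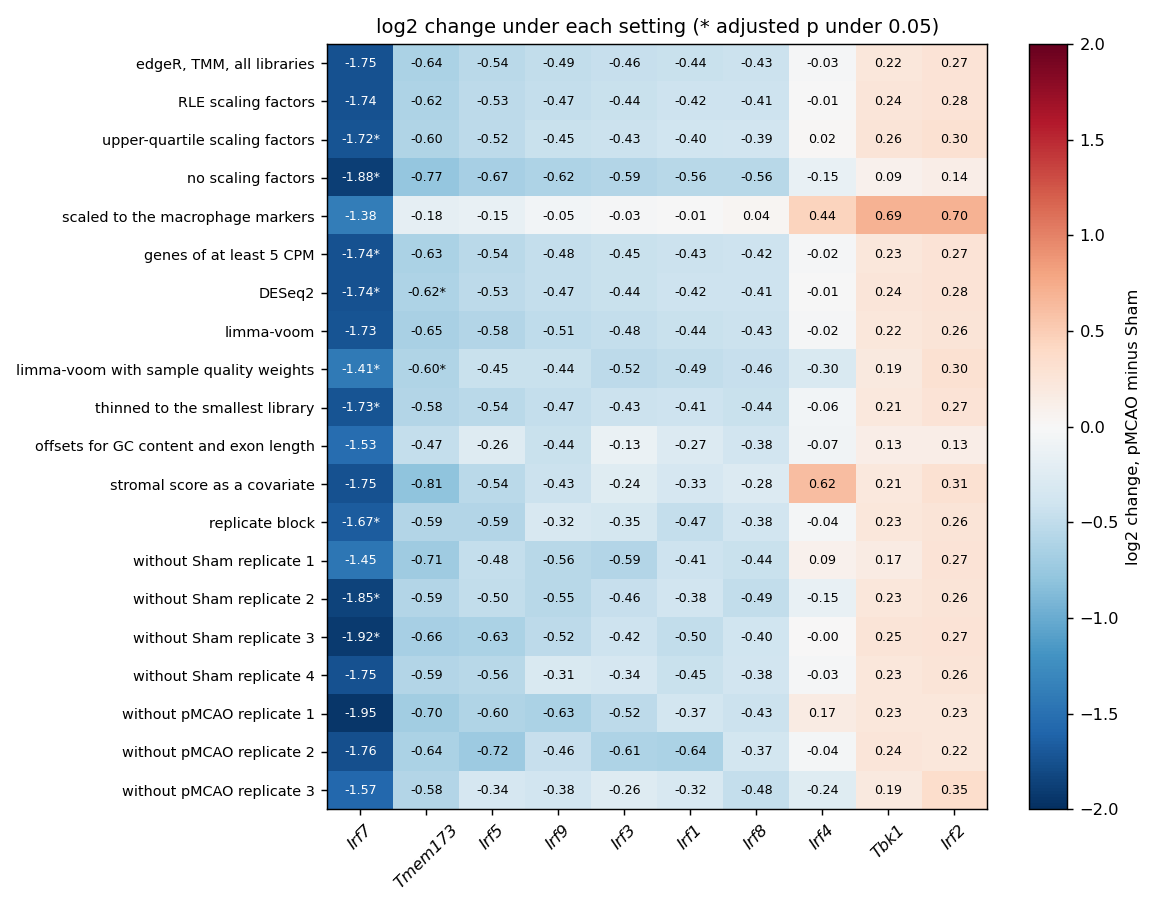
The log2 change (pMCAO minus Sham) of each gene in columns under each setting in rows, with blue for lower and red for higher in pMCAO libraries, and an asterisk for an adjusted p under 0.05. Irf7 is negative in every row, between -1.95 and -1.38, and the row scaled to macrophage markers is the one in which Irf1, Irf3, Irf8 and Irf9 lie within 0.05 of 0.

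Levels of different genes were compared per kilobase of annotated exon. In sham libraries the order of mean level was Irf5 (56.9 ± 7.79 CPM per kilobase, SD, n = 4), Tmem173 (36.6 ± 4.38), Tbk1 (34.4 ± 2.39), Irf4 (22.4 ± 4.73), Irf8 (22.3 ± 2.32), Irf1 (17.4 ± 1.87), Irf3 (14.4 ± 3.23), Irf2 (14.1 ± 0.135), Irf9 (13.8 ± 3.20) and Irf7 (13.1 ± 5.42). The sham ranges of neighbours in that order were separate between Irf5 and Tmem173, between Tbk1 and Irf4 and between Irf8 and Irf1, and the other neighbours overlapped. In pMCAO libraries Tbk1 came first (40.1 ± 1.32 CPM per kilobase, SD, n = 3), ahead of Irf5 (39.0 ± 10.8), with overlapping ranges. Irf7 came last in pMCAO libraries at 3.89 ± 1.03 CPM per kilobase, separate from its neighbour Irf9 at 9.83 ± 1.71. With the length of the longest coding transcript in place of all exons, an alternative chosen after seeing the data, Irf5 stayed first and Irf7 last in sham libraries, and Irf8 (55.3 CPM per kilobase) moved to the second place. The middle of the order therefore depends on the gene model.

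The genes with the profile most like that of a member were taken as those with the smallest root mean square difference of centred log2 CPM over the 7 libraries, among 11587 genes of at least 5 CPM, for the 3 members with the smallest p. For Irf7 these were Bub1 (0.27), a kinase of the mitotic checkpoint, Isg15 (0.33), a ubiquitin-like protein induced by interferon, B3galt4 (0.34), Stil (0.34) and the histone variant gene H2afx (0.39). Isg15 was at 16.1, 7.82 and 4.77 CPM in pMCAO libraries and at 34.3, 30.0, 16.6 and 28.7 CPM in sham libraries. Those nearest to Tmem173 were Ms4a7 (0.05), a macrophage membrane protein, Cd81 (0.07), a tetraspanin, Rab43 (0.08), Zc3h12a (0.08), the RNase Regnase-1, and Kif15 (0.08), a kinesin. Ms4a7 was at 299.5, 292.4 and 274.8 CPM in pMCAO libraries and at 364.7, 486.7, 436.7 and 462.3 CPM in sham libraries. Those nearest to Irf5 were Chmp2a (0.06), a subunit of the ESCRT membrane-scission complex, L3mbtl2 (0.07), Gm5526 (0.08), Ndufc1 (0.08) and Ict1 (0.09).

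The genes around the members were followed in 10 lists, and 2 of their genes passed over all genes, Ciita and Mgl2. Upstream of the IRFs, 0 of 18 measured nucleic acid sensors and adaptors passed, with a median log2 change of -0.19, and at an unadjusted p under 0.05 there were 4 lower and 1 higher, beside 6.47% of all genes that were lower and 6.97% that were higher. These shares over all genes apply to the counts of the other lists at that level too. The RNA helicase Dhx9 averaged 414 ± 52.5 CPM in pMCAO libraries and 256 ± 33.6 CPM in sham libraries (log2 change 0.70, adjusted p = 0.118). The Z-nucleic acid sensor Zbp1 averaged 42.2 ± 13.4 CPM in pMCAO libraries and 70.9 ± 12.9 CPM in sham libraries. The RNA-editing enzyme Adar averaged 25.8 ± 4.27 CPM in pMCAO libraries and 40.8 ± 8.58 CPM in sham libraries. Neither passed (adjusted p = 0.208 for Zbp1 and 0.255 for Adar by edgeR). Of 18 genes of the Toll-like receptor route 0 passed (median -0.05). Unc93b1, which carries nucleic acid-sensing receptors to endosomes, had a log2 change of -0.58 (adjusted p = 0.272), the DNA sensor Tlr9 -0.59 (adjusted p = 0.332) and the RNA sensor Tlr7 0.45 (adjusted p = 0.348).

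Of 22 kinases, scaffolds and regulators around TBK1 and STING 0 passed, 11 had lower and 11 higher means, and 1, Rnf135, was at an unadjusted p under 0.05. Rnf135, a ubiquitin ligase of RIG-I signalling, was at 15.0 ± 0.229 CPM in pMCAO libraries and 24.3 ± 5.68 CPM in sham libraries. Azi2, a scaffold of TBK1, was at 214.1, 163.6 and 182.3 CPM in pMCAO libraries and at 160.4, 134.0, 156.9 and 139.1 CPM in sham libraries (log2 change 0.34, adjusted p = 0.390), and Ikbkg, which encodes NEMO, averaged 48.0 ± 7.31 CPM in pMCAO libraries and 37.1 ± 3.80 CPM in sham libraries (log2 change 0.37, adjusted p = 0.449). Of 12 other IRF family members and cofactors 0 passed, with a median of 0.00. The AP-1 factors Batf3 and Batf, which cooperate with IRF4 and IRF8, had log2 changes of -1.01 (adjusted p = 0.192) and -0.86 (adjusted p = 0.322), and the inhibitor of DNA binding Id2 0.47 (adjusted p = 0.316).

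Of 22 interferon receptor and JAK-STAT genes 0 passed, 17 had lower means, beside 51.4% of all genes, and the median was -0.25. Usp18, a negative regulator of interferon receptor signalling that interferon induces, was at 28.2, 15.6 and 18.1 CPM in pMCAO libraries and at 44.8, 37.6, 34.1 and 42.4 CPM in sham libraries (log2 change -0.95, adjusted p = 0.145). Stat2, the partner of IRF9 in ISGF3, averaged 85.9 ± 18.6 CPM in pMCAO libraries and 128 ± 14.2 CPM in sham libraries (-0.57, adjusted p = 0.225), and Ifngr2, a chain of the interferon-gamma receptor, averaged 85.0 ± 18.6 CPM in pMCAO libraries and 134.5 ± 21.4 CPM in sham libraries (-0.66, adjusted p = 0.192). These 3 genes, taken as those of the list with the smallest p, did not overlap between groups. Of the 22 genes, 4 were lower without overlap and 1 was higher, beside 6.58% and 5.99% of all genes. Of 14 interferon genes only Ifnk and Ifng were listed, with log2 changes of 0.01 (SE 0.63) and -0.01 (SE 0.81).

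Among 39 genes induced by type I interferon through ISGF3, IRF3 and IRF7, 0 passed over all genes, 38 had lower means, beside 51.4% of all genes with a negative change. At an unadjusted p under 0.05, 18 were lower, beside 6.47% of all genes, and the median log2 change was -0.60. Oasl1, a negative regulator of Irf7 translation, was at 3.08, 1.93 and 3.03 CPM in pMCAO libraries and at 10.8, 7.10, 8.37 and 14.7 CPM in sham libraries (-1.94, adjusted p = 0.0956). Bst2, which encodes the virus-tethering protein tetherin, was at 82.1, 58.8 and 39.9 CPM in pMCAO libraries and at 101.9, 152, 130.2 and 174 CPM in sham libraries (-1.21, adjusted p = 0.0718), and Ifi27 had a log2 change of -0.83 (adjusted p = 0.111). Among 18 targets of IRF1, 8 were lower and 0 higher at an unadjusted p under 0.05, beside 6.47% and 6.97% of all genes. Of these 18, 16 had lower means, beside 51.4% of all genes, and the median was -0.47. After adjustment 1 passed, toward lower, beside 0.0988% of all genes in either direction. That gene, Ciita, which encodes the coactivator of class II antigen presentation, fell to 73.5, 73.1 and 81.2 CPM in pMCAO libraries, against 173.5, 152.1, 145.3 and 164.6 CPM in sham libraries (-1.06, adjusted p = 0.0240). The immunoproteasome subunits Psmb10 and Psmb9 had log2 changes of -1.12 (adjusted p = 0.117) and -0.82 (adjusted p = 0.177). The macrophage marker sum was lower in the same pMCAO libraries as these genes, apart from pMCAO 2, and its part in them was not tested.

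Of 10 listed inflammatory cytokine genes downstream of IRF5, 7 were measured, and Il6, Il12a and Il12b were not among the 17209 genes. Of the 7 measured, 0 passed and 0 were at an unadjusted p under 0.05, with a median of 0.00. Il23a, among these 7, had raw counts of only 13, 0 and 2 in pMCAO libraries and 0, 14, 17 and 58 in sham libraries. Il1b had a log2 change of -0.57 (adjusted p = 0.377), Ccl3 0.43 (adjusted p = 0.460) and Cxcl9 -0.57 (adjusted p = 0.678). Of 13 alternative activation genes linked to IRF4, 2 were lower and 2 higher at an unadjusted p under 0.05, beside 6.47% and 6.97% of all genes. The median was -0.18, and 1 passed toward lower after adjustment, beside 0.0988% of all genes in either direction. That gene was the lectin Mgl2 (119 ± 17.1 CPM in pMCAO libraries and 268 ± 45.3 CPM in sham libraries, adjusted p = 0.0274). Il4ra, whose product binds interleukin-4 at the cell surface, had a log2 change of -0.75 (adjusted p = 0.146). Arg1, the arginase of alternatively activated macrophages, was at 101.4, 172 and 10.1 CPM in pMCAO libraries and at 12.8, 7.87, 20.5 and 5.30 CPM in sham libraries, so that pMCAO 3 lay within the sham range (log2 change 3.03, SE 0.95, adjusted p = 0.272).

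**Figure D5:**
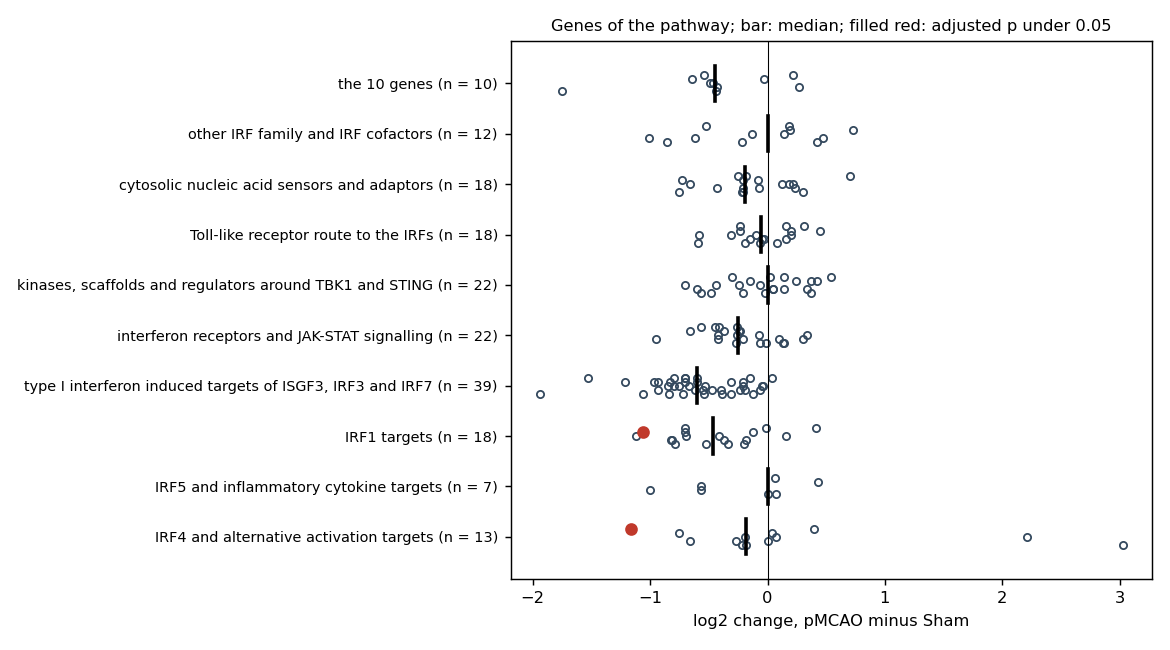
The log2 change (pMCAO minus Sham) of each measured gene, one circle per gene, for the 10 members at the top and for 9 lists of pathway genes without the members, with the median as a bar and genes at an adjusted p under 0.05 in filled red. The type I interferon induced genes lie furthest to the left as a list (median -0.60), and Ciita and Mgl2 are the filled points.

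In the authors' deposited table, whose model terms were not stated in the labels, 0 of the 10 members had an FDR under 0.05, where 14 of 17209 genes (0.0814%) did. The log2 fold changes there were -1.52 for Irf7, -0.91 for Irf5, -0.80 for Tmem173 and -0.80 for Irf1. Irf4 had 0.38 and Irf8 -0.17 in the authors' deposited table, beside -0.03 and -0.43 in the edgeR fit.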

How the data were processed

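RNA-seq of 7 libraries was analysed, grouped by sample title. The libraries were made from 2.0 ng of RNA with ribosomal RNA cleaved away and read in pairs, per the labels' protocols. The read counts per gene were deposited by the authors, made with STAR, featureCounts and limma on GRCm38 (mm10), per the submitters' processing notes. Strand setting and versions were not stated there. The CPM values deposited by the authors are counts scaled to the library total of the table. The deposited log2 fold changes and p-values are the authors'. The table holds 17209 genes, and every column was matched to a sample.

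Every other value was computed from the counts with edgeR 4.0.16 (R 4.3.3): TMM factors, the expression filter by group (all genes kept), robust quasi-likelihood F test, group as the only term, two-sided, Benjamini-Hochberg adjustment over all genes, threshold 0.05. The biological coefficient of variation was 43.6%. The SE is the log2 change divided by the square root of F. The calculation was tested on simulated data. Alternatives used DESeq2 1.42.0, limma 3.58.1 and mgcv 1.9.3. Ratios used counts plus 0.5 and scipy 1.17.1. For the stromal score, log2 CPM was averaged over fibroblast and blood endothelium markers. Positions and exon lengths come from GENCODE M21 (GRCm38), which holds 99.5% of the identifiers. Named genes were the members, the 3 genes of each list with the smallest p, the nearest profiles and cell markers. Overlapping neighbours, Jchain, Siglech, F13a1, Ly6c2, Plac8 and Il23a were named after their values were seen. The per-library display of Isg15 and Ms4a7 was also chosen after their values were seen. The members and lists were chosen with earlier results of these data known. Protein sequences were not used here. Results for the replicate pairing are in the closing section.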

Additional observations from a re-analysis of the deposited data

How the results depend on the processing

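The direction of Irf1, Irf2, Irf3, Irf5, Irf7, Irf9, Tmem173 and Tbk1 held in all 20 alternative fits. That of Irf4 turned with upper-quartile factors (0.02), with macrophage marker scaling (0.44), with the stromal score (0.62), without Sham 1 (0.09) and without pMCAO 1 (0.17), with a range of -0.24 to 0.17 over the fits without 1 library, and that of Irf8 with macrophage marker scaling (0.04), where the median of the members was -0.02. Against 0 members and 17 genes (12 higher, 5 lower), the calls were 1 and 34 with upper-quartile factors, 1 and 29 (14 higher, 15 lower) without scaling factors, 0 and 180 (179 higher, 1 lower) with macrophage marker scaling, 1 and 75 over genes of at least 5 CPM, 2 and 470 with DESeq2, 0 and 35 with limma-voom, 2 and 818 with sample quality weights, 1 and 33 after thinning, 0 and 0 with the stromal score (edgeR, 973 genes at an unadjusted p under 0.05) and 1 and 98 at a threshold of 0.10. The single member called was Irf7 each time. Without scaling factors the median of all genes was -0.14. Leaving out each library gave 0 to 1 members and 0 to 100 genes, with 0 genes without pMCAO 1 (edgeR, where 1987 had an unadjusted p under 0.05), 7 without pMCAO 3, 9 without Sham 4, 47 without Sham 1, 47 without Sham 2 and 100 without pMCAO 2. The causes of these shifts were not tested. The 3 within-library ratios kept their direction with a pseudocount of 2 and without each library, with ranges over the fits without 1 library of -1.48 to -0.83 for Irf7 to Irf3 (the nearest to 0 without Sham 1), -0.85 to -0.61 for Irf1 to Irf2 and 0.23 (without pMCAO 3) to 0.62 (without pMCAO 1) for Irf4 to Irf8. The replicate block gave 21 genes and 1 member, Irf7 (adjusted p = 0.0259). The replicate numbers share only a number: deviations of same-numbered libraries correlated at -0.108, 0.0102 and 0.178 over 11588 genes, and pMCAO 3 alone correlated best with its own number. The lowest count of a member in any library was 192 (Irf7), and after thinning to the smallest library Irf7 was at -1.73 and Tmem173 at -0.58.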

Other observations

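Sham 1 had the highest summed B and plasma cell markers, while its T and NK cell markers, at 128.3 CPM, were below those of pMCAO 2 (161.7 CPM) and Sham 2 (148.9 CPM). Jchain, the joining chain of secreted antibodies, was at 26.6, 140.2 and 75.2 CPM in pMCAO libraries and at 975, 59.6, 66.7 and 5.28 CPM in sham libraries. Sham 1 also had the highest sham values of Irf4, Irf5 and Irf7 and the lowest of Irf3, Irf9, Tmem173 and Tbk1. The part of B and plasma cell transcripts in these values was not tested.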
